A study of Sus scrofa with 24 samples.

Results

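The genes followed here are 10 WNT, R-spondin and LGR genes of the pig ovary. They were taken by symbol from a list drawn up with earlier results of these data known: the R-spondin ligands RSPO1, RSPO2 and RSPO3, the receptors LGR4 and LGR5, and the WNT ligands WNT2B, WNT4, WNT5A, WNT6 and WNT7A. All 10 of the 10 listed symbols were found among the 18753 genes of the deposited table. Ovaries came from Sus scrofa sows of the Chenghua breed, all healthy and with no earlier reproductive disease, and each stage had 3 sows: Day 3 (postnatal day 3), Puberty (postnatal day 120), Year 1 (1 year of age, sexually mature) and Pregnancy (gestation day 105). No treatment or genetic change was described for any sow. Each library was made from polyadenylated RNA of frozen ovary fragments of 1 sow, so that p-values measure the spread between libraries of different sows, which can also hold differences between the fragments taken. The design asked how ovarian gene expression differs between the 4 stages.

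WNT proteins are secreted lipid-modified ligands. In the canonical branch they bind a Frizzled receptor together with LRP5 or LRP6, which keeps beta-catenin from being degraded and lets it switch on target genes with the LEF and TCF factors. R-spondins are secreted amplifiers of this signal: they bind LGR4, LGR5 or LGR6 and remove ZNRF3 and RNF43, the membrane ligases that otherwise clear Frizzled from the cell surface. In mice, Rspo1 and Wnt4 are needed for the early gonad to become an ovary, and Lgr5 marks cells of the ovarian surface epithelium around birth.

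The libraries held 14615479 to 16187920 expected counts and 15788 to 17702 detected genes. Markers of ovarian cells were present in all 12 libraries, with the granulosa factor FOXL2 at 8.28 to 120.32 TPM. Year 1 replicate 1 and Pregnancy replicate 3 stood apart from the other libraries of their stages. The 8 luteal markers summed to 923.59 TPM in Year 1 replicate 1 and to 24121.19 and 20815.72 TPM in Year 1 replicates 2 and 3, and to 71942.26 TPM in Pregnancy replicate 3 and to 357.68 and 402.21 TPM in Pregnancy replicates 1 and 2. STAR, which brings cholesterol into mitochondria for steroid synthesis, split the same libraries, at 50.68 TPM against 5294.42 and 5107.31 TPM at Year 1 and at 3948.57 TPM against 5.88 and 11.79 TPM in Pregnancy. Where leaving out either library changed a call of the 10 genes between a pair of stages or moved a called value by more than 1.5 times, the result without it is given as well.

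All 8 ligand genes and LGR5 had their highest stage mean TPM at Day 3, and LGR4 had its highest at Puberty. The share of all genes with their highest mean TPM at Day 3 was not counted. In the scaled counts used for testing, the log2 fold change of WNT5A at Year 1 against Day 3 was 0.10 ± 0.66 (edgeR, SE, adjusted p = 0.912). In TPM, a level scaled for transcript length and library size, the 3 R-spondin genes together reached 80.9 ± 18.0 TPM at Day 3, 8.13 ± 0.63 TPM at Puberty, 1.75 ± 2.66 TPM at Year 1 and 4.82 ± 2.99 TPM in Pregnancy (SD, n = 3 each). The 5 WNT genes together reached 115.8 ± 12.8, 23.6 ± 6.01, 16.7 ± 3.27 and 15.4 ± 6.33 TPM at the same stages in that order. In edgeR's quasi-likelihood test on the counts, 8 of the 10 genes differed among the 4 stages at an adjusted p under 0.05, where 46.0% of all 15699 genes tested did. RSPO3 (adjusted p = 0.0775) and WNT5A (adjusted p = 0.265) did not pass.

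**Figure D1:**
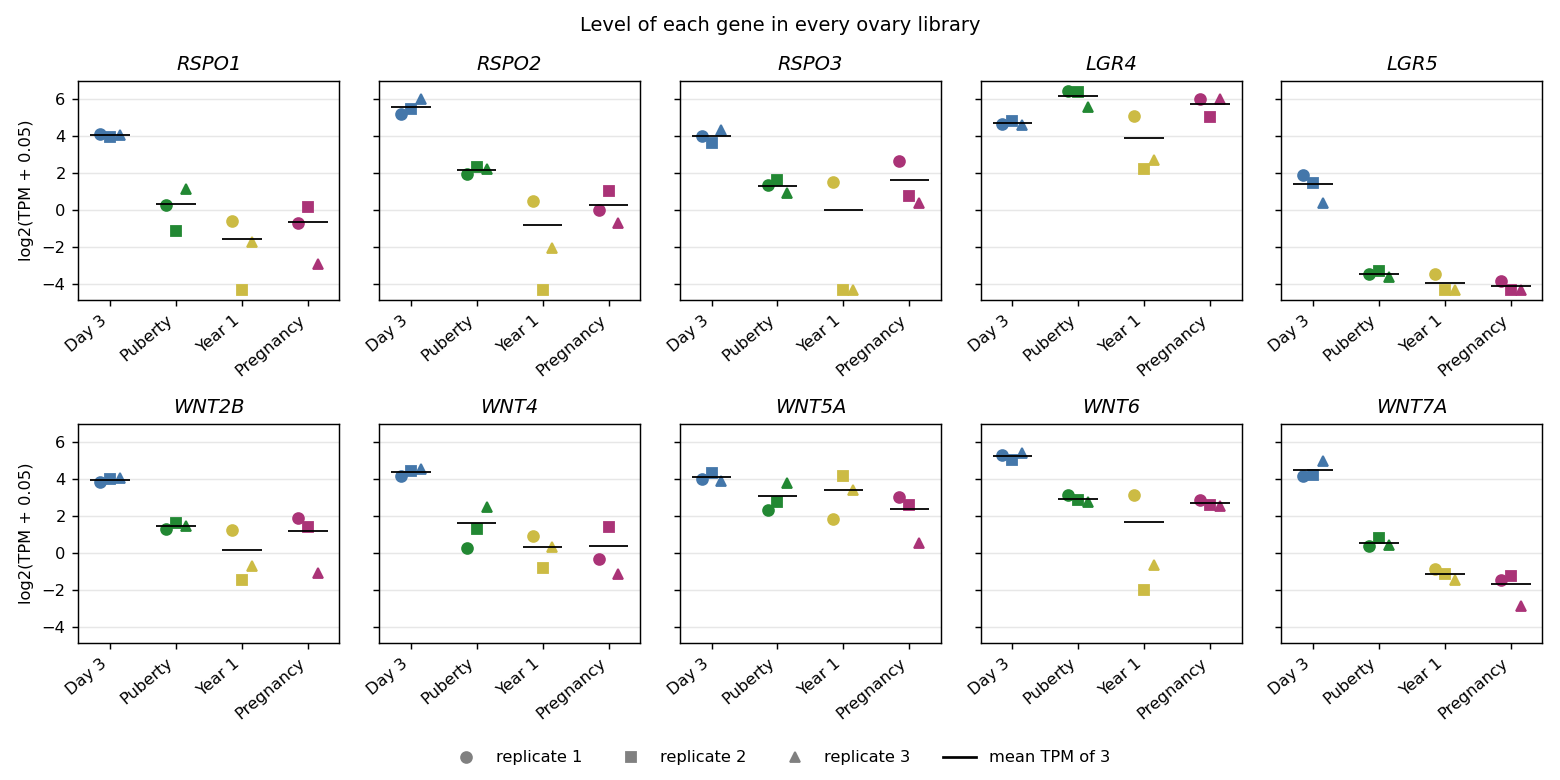
Level of each of the 10 genes in the 12 ovary libraries, on a log2 axis of TPM plus 0.05, with replicates 1 to 3 as circle, square and triangle and a bar at the mean TPM of the 3. RSPO1, RSPO2, RSPO3, LGR5, WNT2B, WNT4, WNT6 and WNT7A had their 3 Day 3 libraries above all 9 others in TPM, while LGR4 had its 2 highest libraries at Puberty. The share of all genes above all 9 in TPM was not counted. In TMM-scaled CPM (counts scaled for library size), 31.4%, 30.9% and 28.0% of all genes lay wholly below Day 3 at Puberty, Year 1 and Pregnancy, each taken alone.

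Against Day 3, 7 of the 10 genes passed at Puberty (6 fell, 1 rose), where 28.7% of all genes tested did (17.2% fell, 11.5% rose). At Year 1, 8 of the 10 fell, where 48.0% of all genes passed, 24.0% in each direction. In Pregnancy 7 of the 10 passed (6 fell, 1 rose), where 34.0% of all genes did (18.1% fell, 15.9% rose). These 3 comparisons share the Day 3 libraries. The median log2 fold change of the 10 genes was -2.42 for Puberty vs Day 3, -3.39 for Year 1 vs Day 3 and -2.91 for Pregnancy vs Day 3, beside 0.04, 0.03 and 0.10 over all genes tested. On TMM-scaled CPM (counts scaled for library size), 8 of the 10 genes had all later libraries below all Day 3 libraries at Puberty, 8 at Year 1 and 9 in Pregnancy, where 31.4%, 30.9% and 28.0% of all genes did. At Puberty the count of 7 was 4 without Day 3 replicate 1 and 3 without Day 3 replicate 2, Day 3 replicate 3, Puberty replicate 1 or Puberty replicate 2, and the share of all genes called in these 5 settings was 16.7% to 19.5%. LGR5, RSPO2 and WNT7A kept their Puberty vs Day 3 call in all 21 settings tried.

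**Figure D2:**
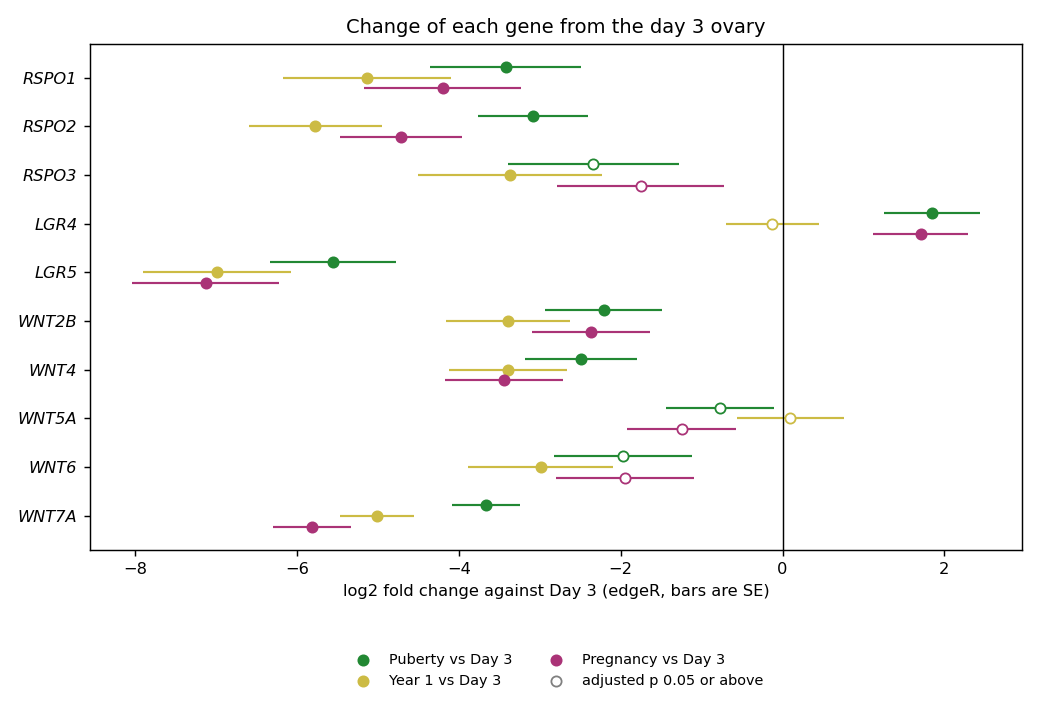
Log2 fold change of each gene at Puberty, Year 1 and Pregnancy against Day 3 (edgeR, bars are the SE; n = 3 libraries per stage). Filled points passed an adjusted p of 0.05 and open points did not; LGR5 lies farthest to the left and LGR4 alone has filled points to the right of 0. LGR5, RSPO1, RSPO2 and RSPO3 include libraries at 0 counts, so the positions of those stages depend on edgeR's prior count.

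RSPO1 lies on chromosome 6 (93664839 to 93690328, minus strand, Sscrofa11.1, as are all positions here). It was at 16.99, 15.49 and 16.61 TPM at Day 3, at 1.14, 0.40 and 2.12 TPM at Puberty, at 0.60, 0 and 0.25 TPM at Year 1 and at 0.57, 1.08 and 0.08 TPM in Pregnancy. The 3 Day 3 libraries were close to each other and far above the other 9, whose values overlapped between stages. RSPO1 fell at Puberty (log2 fold change -3.42 ± 0.93, SE, adjusted p = 0.0200), at Year 1 (-5.14 ± 1.04, adjusted p = 0.00280) and in Pregnancy (-4.20 ± 0.97, adjusted p = 0.00829). The log2 value was -4.05 at Puberty without Puberty replicate 3, -6.13 at Year 1 without Year 1 replicate 1 and -5.00 in Pregnancy without Pregnancy replicate 2. The Puberty call was lost without any 1 of the 3 Day 3 libraries or without Puberty replicate 1 or 2, with adjusted p between 0.0506 and 0.0714.

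RSPO2, an R-spondin that mouse oocytes make (chromosome 4, 29415774 to 29577890, plus strand), had the highest TPM of the 3 R-spondins at Day 3. It was at 36.12, 44.48 and 65.28 TPM at Day 3, at 3.81, 4.91 and 4.68 TPM at Puberty, at 1.35, 0 and 0.19 TPM at Year 1 and at 0.95, 1.99 and 0.57 TPM in Pregnancy. The Day 3, Puberty and Pregnancy libraries formed 3 groups without overlap, in that order from high to low, and the Year 1 libraries overlapped those of Pregnancy. RSPO2 fell by 3.09 ± 0.68 at Puberty (log2, SE, adjusted p = 0.00827), by 5.78 ± 0.82 at Year 1 (adjusted p = 0.000518) and by 4.72 ± 0.76 in Pregnancy (adjusted p = 0.00137), all against Day 3. Without Year 1 replicate 1 a single count was left at Year 1, 438-fold lower than Day 3 after scaling by library totals (95% exact interval 78.3 to 17310, counting error only; edgeR adjusted p = 8.60e-05). These levels rested on few reads: 161, 189 and 276 counts at Day 3 and 19, 24 and 21 counts at Puberty. WNT5A had 1015, 1207 and 886 counts at Day 3 and a lower TPM, so the order of levels between genes depends on the transcript lengths used for TPM, which are not given in the sources used here.

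RSPO3 lies on chromosome 1 (35985985 to 36066432, minus strand). It was at 15.92, 12.10 and 19.76 TPM at Day 3, at 2.47, 3.02 and 1.83 TPM at Puberty, at 2.86, 0 and 0 TPM at Year 1 and at 6.35, 1.62 and 1.24 TPM in Pregnancy. All 9 later libraries were below the Day 3 libraries, and Pregnancy replicate 1 was the highest of the 9. Only the Year 1 difference passed (-3.37 ± 1.14, adjusted p = 0.0315); that call was lost without any 1 Day 3 library, without Year 1 replicate 2 or 3, or in a fit of the 2 stages alone, with adjusted p between 0.0568 and 0.0766. Without Year 1 replicate 1, the only Year 1 library above 0, the adjusted p was 0.000664. A floor of 3 counts over the remaining 2 libraries then gave RSPO3 58.7-fold lower at Year 1 than at Day 3. With the 0 counts seen there, the 95% exact lower limit was 47.4-fold (counting error only, scaled by library totals). The log2 values of -2.34 ± 1.06 at Puberty (adjusted p = 0.121) and -1.75 ± 1.03 in Pregnancy (adjusted p = 0.209) did not pass. The Day 3 values came from 87, 63 and 102 counts, and each 0 allows up to 3 counts.

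As shares of the summed R-spondin TPM, which were not tested, RSPO2 made up 52.3% to 64.2% in the Day 3 libraries, 51.3% to 58.9% at Puberty, 28.1% and 43.2% in the Year 1 libraries with a share, and 12.1% to 42.4% in Pregnancy. RSPO3 made up 16.8% to 23.1% at Day 3, 21.2% to 36.3% at Puberty, 0% and 59.5% at Year 1, and 34.5% to 80.7% in Pregnancy. RSPO1 made up 16.3% to 24.6% at Day 3, 4.80% to 24.6% at Puberty, 12.5% and 56.8% at Year 1, and 4.23% to 23.0% in Pregnancy. The Puberty and Pregnancy ranges overlapped for RSPO1 and RSPO3. The Pregnancy shares rested on 5, 11 and 3 RSPO2 counts, and Year 1 replicate 2 had 0 counts for all 3 R-spondins and therefore no share.

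**Figure D3:**
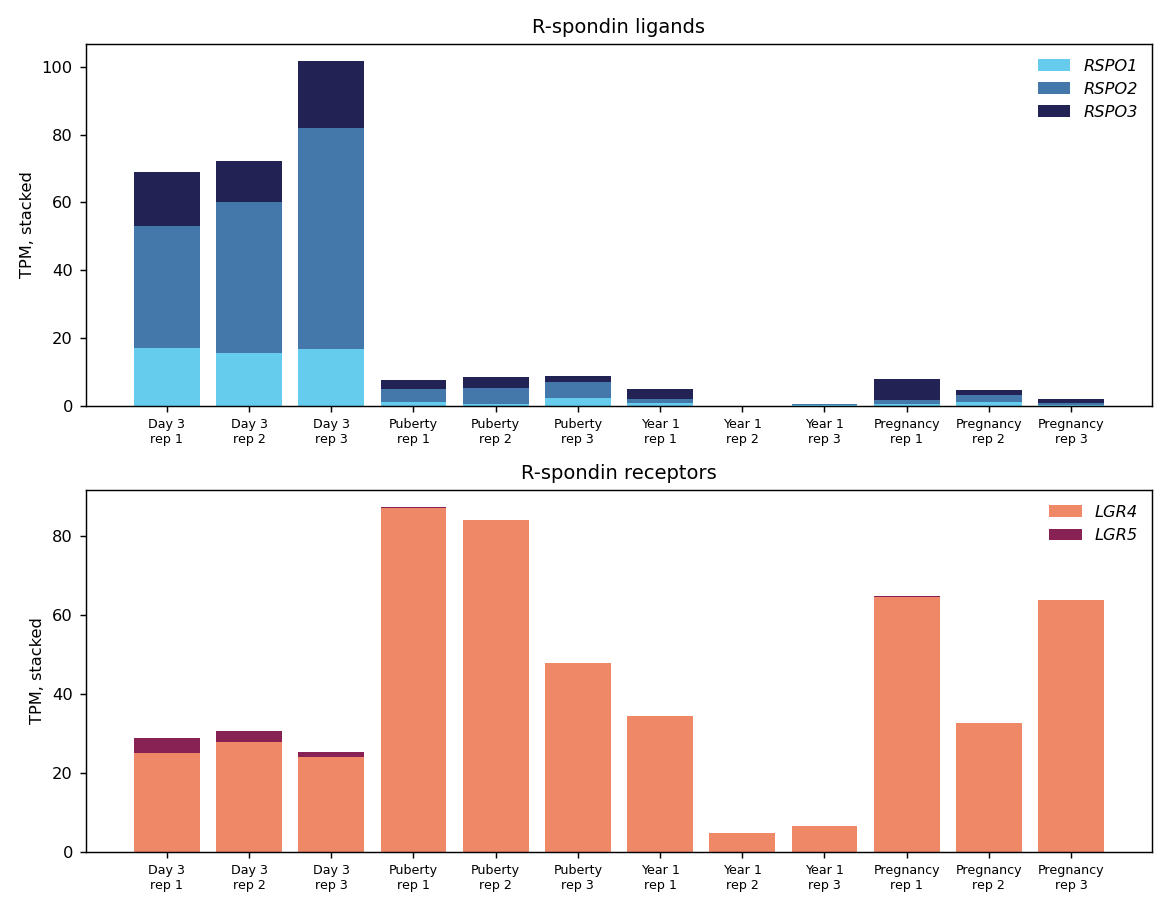
Stacked TPM of RSPO1, RSPO2 and RSPO3 (top) and of LGR4 and LGR5 (bottom) in each of the 12 libraries, in stage order. The R-spondin bars stand at 8.63 TPM or less in all 9 later libraries, against 69.03, 72.07 and 101.65 TPM at Day 3, while the receptor bars, nearly all LGR4, are tallest at Puberty.

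The 2 receptors moved apart. LGR5, a stem-cell marker in several mouse tissues (chromosome 5, 35463257 to 35595234, plus strand), was at 0.05 TPM or less in each of the 9 later libraries, against 3.73, 2.71 and 1.24 TPM at Day 3. In counts, it had 121, 81 and 38 at Day 3, 1, 2 and 1 at Puberty, 1, 0 and 0 at Year 1 and 1, 0 and 0 in Pregnancy. All Day 3 libraries were above all later ones, and the 3 later stages overlapped. Summed over a stage and scaled by library totals, LGR5 was 62.1-fold lower at Puberty than at Day 3 (95% exact interval 23.9 to 230, counting error only). The 1 count of Year 1 gave a ratio of 250-fold lower (44.5 to 9929), and the 1 count of Pregnancy 248-fold lower (44.1 to 9849). The adjusted p for the fall was 0.00104 at Puberty, 0.000345 at Year 1 and 0.000481 in Pregnancy (edgeR). Leaving out Year 1 replicate 1 or Pregnancy replicate 1 removed the only count of its stage. A floor of 3 counts over the 2 libraries left then gave 55.9-fold lower at Year 1 and 56.2-fold lower in Pregnancy than at Day 3. With the 0 counts seen, the 95% exact lower limits were 45.1-fold at Year 1 and 45.3-fold in Pregnancy (counting error only, scaled by library totals). LGR5 shares 19532 bases with TSPAN8 on the opposite strand, and whether the counting used strand is not given in the sources used here; TSPAN8 was at 0.03 TPM or less in the later libraries, against 0.14 to 0.37 TPM at Day 3.

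LGR4 (chromosome 2, 32871837 to 32979150, plus strand) ran the other way. It was at 25.1, 27.86 and 24.12 TPM at Day 3, at 87.21, 83.94 and 47.75 TPM at Puberty, at 34.3, 4.63 and 6.46 TPM at Year 1 and at 64.66, 32.5 and 63.79 TPM in Pregnancy. All Puberty and all Pregnancy libraries were above all Day 3 libraries, and Puberty overlapped Pregnancy. At Year 1, replicate 1 was above the Day 3 libraries and replicates 2 and 3 were below every other library. LGR4 rose at Puberty (log2 fold change 1.85 ± 0.59, SE, adjusted p = 0.0394) and in Pregnancy (1.71 ± 0.59, adjusted p = 0.0463) against Day 3. Both calls were lost without any 1 Day 3 library. They were also lost with upper-quartile scaling (adjusted p = 0.0560 at Puberty, 0.0750 in Pregnancy). Without Puberty replicate 1 or 2, or Pregnancy replicate 1, both were lost as well, and the Pregnancy call also without Pregnancy replicate 3, without Puberty replicate 3 or with RLE scaling, with log2 values of 1.51 to 1.88 across all these settings. Year 1 did not differ from Day 3 with all libraries (-0.12 ± 0.58, adjusted p = 0.869), and was lower without Year 1 replicate 1 (-1.34 ± 0.37, adjusted p = 0.0119). The summed TPM of 13 granulosa markers was 15665.23 in Year 1 replicate 1 and 720.47 and 928.13 in replicates 2 and 3, and 1120.4, 1255.61 and 1045.51 in the Pregnancy libraries; its part in the LGR4 values was not tested. LGR4 shares 965 bases at its start with the lncRNA LOC110259286.

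At Day 3, LGR4 TPM was 6.73, 10.3 and 19.5 times that of LGR5 in the 3 libraries. LGR5 made up at most 0.116% of the summed LGR4 and LGR5 TPM in any later library, against 4.89% to 12.9% at Day 3. LGR6, the remaining LGR receptor of R-spondins and not among the 10 genes, averaged 10.4 ± 1.75 TPM at Day 3, 0.38 ± 0.14 TPM at Puberty, 0.04 ± 0.07 TPM at Year 1 and 0.15 ± 0.09 TPM in Pregnancy (SD, n = 3). It fell in all 3 comparisons with Day 3 (log2 fold change -4.39 ± 0.78 at Puberty, adjusted p = 0.00298). LGR4 was thus the LGR gene with the most TPM at each of the 4 stages.

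WNT7A, needed in mice to pattern the oviduct and uterus (chromosome 13, 70538802 to 70602464, plus strand), passed against Day 3 at all 3 later stages and in all 21 settings. It was at 17.80, 19.03 and 31.78 TPM at Day 3, at 1.26, 1.71 and 1.29 TPM at Puberty, at 0.51, 0.40 and 0.32 TPM at Year 1 and at 0.31, 0.38 and 0.09 TPM in Pregnancy. The libraries of Day 3, Puberty and Year 1 did not overlap, and the Pregnancy libraries overlapped those of Year 1. WNT7A fell by 3.67 ± 0.42 at Puberty (log2, adjusted p = 0.000429), by 5.02 ± 0.46 at Year 1 (adjusted p = 6.65e-05) and by 5.82 ± 0.48 in Pregnancy (adjusted p = 6.65e-05), against Day 3.

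WNT4 (chromosome 6, 80110238 to 80138165, minus strand), which acts with RSPO1 in the early mouse ovary, was at 17.93, 21.86 and 23.54 TPM at Day 3, at 1.15, 2.42 and 5.57 TPM at Puberty, at 1.89, 0.53 and 1.22 TPM at Year 1 and at 0.75, 2.65 and 0.40 TPM in Pregnancy. The Day 3 libraries were above all others, and the 3 later stages overlapped. WNT4 fell by 2.49 ± 0.69 at Puberty (adjusted p = 0.0221), by 3.39 ± 0.73 at Year 1 (adjusted p = 0.00373) and by 3.44 ± 0.73 in Pregnancy (adjusted p = 0.00528). The Puberty call was lost without Day 3 replicate 2 or 3 or Puberty replicate 1 or 2 (adjusted p between 0.0574 and 0.0771). The log2 value was -3.24 at Puberty without Puberty replicate 3 and -4.54 in Pregnancy without Pregnancy replicate 2.

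WNT2B, a canonical ligand (chromosome 4, 107906141 to 107923343, minus strand), was at 14.43, 16.47 and 16.68 TPM at Day 3, at 2.47, 3.06 and 2.73 TPM at Puberty, at 2.35, 0.31 and 0.57 TPM at Year 1 and at 3.76, 2.67 and 0.42 TPM in Pregnancy. Day 3 was above every later library. WNT2B fell by 2.21 ± 0.72 at Puberty (adjusted p = 0.0418), by 3.39 ± 0.76 at Year 1 (adjusted p = 0.00489) and by 2.37 ± 0.73 in Pregnancy (adjusted p = 0.0293). The Puberty call was lost without any 1 Day 3 or Puberty library or without Pregnancy replicate 2 (adjusted p between 0.0554 and 0.107). The Pregnancy call was lost without any 1 Day 3 library or Pregnancy replicate 2 (adjusted p between 0.0558 and 0.0720). The log2 value was -4.52 at Year 1 without Year 1 replicate 1 and -2.99 in Pregnancy without Pregnancy replicate 1. The gene lies wholly within ST7L, on the opposite strand, which was at 13.66 to 20.46 TPM in the later libraries, against 25.88 to 30.56 TPM at Day 3, so without strand some reads could belong to either gene.

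WNT6 (chromosome 15, 120901471 to 120917359, plus strand), another canonical ligand, had the highest TPM of the 5 WNT genes at Day 3. It also had the fewest counts of the 5 there (1454 summed over the libraries, against 1895 to 3108). Its rank in TPM thus depends on the transcript lengths used. WNT6 was at 39.56, 33.24 and 43.16 TPM at Day 3, at 8.91, 7.40 and 6.90 TPM at Puberty, at 8.71, 0.20 and 0.60 TPM at Year 1 and at 7.24, 6.14 and 5.91 TPM in Pregnancy. No later library reached the Day 3 range, Year 1 replicate 1 lay among the Puberty libraries, and Year 1 replicates 2 and 3 lay below all others. WNT6 fell at Year 1 (-2.99 ± 0.90, adjusted p = 0.0192), a call lost without Year 1 replicate 3 (adjusted p = 0.0576) or in a fit of the 2 stages alone (adjusted p = 0.0734). Without Year 1 replicate 1 the change was -5.70 ± 0.43 (adjusted p = 2.3e-05). The differences of -1.98 ± 0.85 at Puberty (adjusted p = 0.106) and -1.95 ± 0.85 in Pregnancy (adjusted p = 0.0998) did not pass in edgeR with all libraries, while DESeq2 on the same 12 libraries called both (adjusted p = 0.0460 at Puberty and 0.0426 in Pregnancy). Without Year 1 replicate 1, a library of neither pair that enters the shared estimate of spread, WNT6 and RSPO3 passed in both. In that setting 9 of the 10 genes passed at Puberty and 9 of 10 in Pregnancy, where 38.1% and 44.0% of all genes passed.

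WNT5A, the ligand best known for signalling that does not use beta-catenin (chromosome 13, 37344684 to 37367215, minus strand), was at 16.40, 20.37 and 15.11 TPM at Day 3, at 5.04, 6.91 and 13.83 TPM at Puberty, at 3.62, 18.29 and 10.52 TPM at Year 1 and at 8.10, 6.03 and 1.41 TPM in Pregnancy. Year 1 overlapped Day 3, and in TMM-scaled counts Puberty did as well. The log2 fold changes against Day 3 were -0.77 ± 0.67 at Puberty (adjusted p = 0.409), 0.10 ± 0.66 at Year 1 (adjusted p = 0.912) and -1.25 ± 0.67 in Pregnancy (adjusted p = 0.172), none past the threshold. The lncRNA LOC102162847 overlaps 11554 bases of the gene.

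The later stages were also compared with each other. For Year 1 vs Puberty, 0 of the 10 genes passed, where 0.0255% of all genes did. Of the 10, 3 had an unadjusted p under 0.05 (31.2% of all genes) and DESeq2 called 3, LGR4, RSPO2 and WNT7A (21.0% of all genes). For Pregnancy vs Year 1, 0 of 10 passed, where 2.96% of all genes did. Of the 10, 1 had an unadjusted p under 0.05 (27.9% of all genes) and DESeq2 called 1, LGR4 (18.4% of all genes). For Pregnancy vs Puberty, 0 of 10 passed, where 0.00% of all genes did. Of the 10, 2 had an unadjusted p under 0.05 (7.36% of all genes) and DESeq2, which called 0.618% of all genes, called 1 (WNT7A, log2 fold change -2.17 ± 0.45, adjusted p = 0.00122). limma voom with quality weights called 7 of 10 for Year 1 vs Puberty and 6 of 10 for Pregnancy vs Year 1, where it called 59.6% and 56.2% of all genes.

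The edgeR counts between Year 1 and the other later stages moved with Year 1 replicate 1. Without it, 6 of 10 passed for Year 1 vs Puberty (LGR4, RSPO2, RSPO3, WNT2B, WNT6 and WNT7A, all lower at Year 1), where 38.3% of all genes did. LGR4 differed by -3.16 ± 0.41 (adjusted p = 0.000997) and WNT6 by -3.70 ± 0.40 (adjusted p = 0.000506). Without it, 6 of 10 also passed for Pregnancy vs Year 1, where 30.6% did: LGR4, RSPO2, RSPO3, WNT2B and WNT6 were higher in Pregnancy, and WNT5A was lower (-1.80 ± 0.58, adjusted p = 0.0399). Without Pregnancy replicate 3 alone, 2 of 10 passed for Year 1 vs Puberty (RSPO2 and WNT7A), where 16.7% of all genes did, and without both libraries 8 of 10 did, where 51.6% of all genes did.

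Genes of the same pathway outside the 10 were taken from a list of 111, of which 108 were in the file and 102 had enough counts to be tested. At Puberty 38 of 102 passed against Day 3 (13 rose, 25 fell; 28.7% of all genes passed), at Year 1 49 (15 rose, 34 fell; 48.0%) and in Pregnancy 33 (10 rose, 23 fell; 34.0%). Their median log2 fold changes against Day 3 were -0.26, -0.35 and -0.12 at the 3 stages in that order, closer to 0 than those of the 10 genes. Both lists were drawn up with earlier results of these data known, and the difference between their medians was not tested. Of the 50 pathway genes that differed among the stages, the highest mean TMM-scaled log2 CPM was at Day 3 for 32 genes, at Puberty for 8, at Year 1 for 8 and in Pregnancy for 2. The count of 38 was 23 without Day 3 replicate 3 and 24 without Puberty replicate 2, where 18.6% and 18.3% of all genes were called. The count of 50 was 32, 29 and 31 without Day 3 replicates 1, 2 and 3 in that order, where 31.1%, 28.7% and 30.5% of all genes were. Beside the group counts below, 17.2% of all genes fell and 11.5% rose at Puberty. At Year 1 24.0% fell and 24.0% rose, and in Pregnancy 18.1% fell and 15.9% rose.

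**Figure D4:**
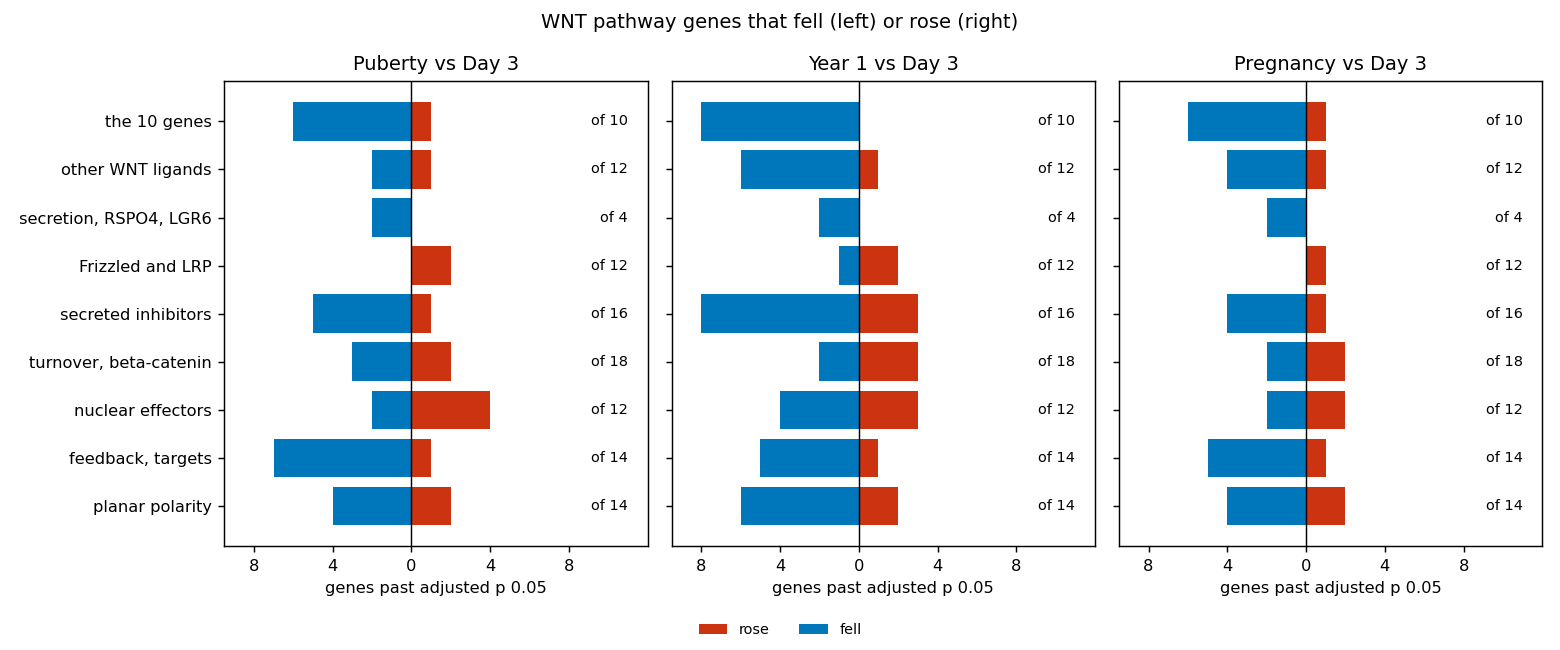
Number of genes past an adjusted p of 0.05 against Day 3 in each pathway group, with falls to the left of 0 and rises to the right; the number tested stands at the right of each row. The 10 genes show mostly falls (6, 8 and 6), where 17.2%, 24.0% and 18.1% of all genes fell. The Frizzled and LRP row shows 2, 2 and 1 rises and 0, 1 and 0 falls of 12 genes, where 11.5%, 24.0% and 15.9% of all genes rose.

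Among 12 other WNT ligands tested, 2 fell and 1 rose at Puberty. WNT3, a canonical ligand, averaged 1.28 ± 0.15 TPM at Puberty against 14.1 ± 5.14 TPM at Day 3 (-3.13 ± 0.77, adjusted p = 0.0132; 0.0519 without Puberty replicate 1). WNT3A and WNT8B were low throughout, at 0.67 ± 0.30 and 2.78 ± 1.28 TPM at Day 3, and both were at 0 counts in all Year 1 libraries. WNT11, which rose, was at 4.59 ± 0.96 TPM at Puberty against 0.80 ± 0.25 TPM at Day 3 (2.81 ± 0.72, adjusted p = 0.0153; 0.0673 without Day 3 replicate 2 and 0.0589 without Day 3 replicate 3). RSPO4, the fourth R-spondin, fell with LGR6: it was at 0.05 ± 0.09 TPM at Puberty against 3.26 ± 1.04 TPM at Day 3 (adjusted p = 0.00444). WLS, which carries WNT proteins to the cell surface, was at 49.2 ± 7.90 TPM at Puberty against 78.8 ± 9.26 TPM at Day 3 and did not pass (-0.34 ± 0.33, adjusted p = 0.462).

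Of 12 Frizzled and LRP receptors, 2 rose and 0 fell at Puberty (5 at an unadjusted p under 0.05), where 11.5% of all genes rose and 17.2% fell. The log2 fold change was negative for 7 of the 12, with a median of -0.27. FZD1 was at 17.6 ± 3.04 TPM at Puberty against 9.43 ± 0.60 TPM at Day 3 (1.22 ± 0.27, adjusted p = 0.00759). At Year 1 its TMM-scaled change was 0.74 ± 0.26 (adjusted p = 0.0385), a call that held in 11 of 21 settings. Its TPM was 5.51 to 13.92 at Year 1, overlapping 8.78 to 9.96 at Day 3. FZD5 was at 13.2 ± 7.05 TPM at Puberty against 2.48 ± 0.14 TPM at Day 3 (2.75 ± 0.59, adjusted p = 0.00701). The co-receptor LRP6 did not pass in any of the 3 comparisons with Day 3 (0.25 ± 0.16 at Puberty, adjusted p = 0.250). FZD10 passed only at Year 1, at 0.46 ± 0.37 TPM against 5.11 ± 0.92 TPM at Day 3 (adjusted p = 0.0133).

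Of 16 secreted inhibitors tested, 5 fell and 1 rose at Puberty, 8 fell and 3 rose at Year 1, and 4 fell and 1 rose in Pregnancy. The inhibitor that rose at Puberty was DKK4, at 1.05 ± 0.29 TPM against 0.15 ± 0.21 TPM at Day 3 (3.04 ± 0.97, adjusted p = 0.0380). Its call held in 14 of 21 settings and was lost without Day 3 replicate 2 or 3 or any 1 Puberty library. Without Day 3 replicate 1 its log2 value was 4.89. WIF1, which binds WNT proteins outside the cell, was at 3.66 ± 0.90 TPM at Puberty against 31.1 ± 4.84 TPM at Day 3 (-2.76 ± 0.40, adjusted p = 0.00127). APCDD1, a membrane inhibitor of the pathway, was at 23.0 ± 6.42 TPM at Puberty against 125.6 ± 21.4 TPM at Day 3 (-2.13 ± 0.39, adjusted p = 0.00365). KREMEN2, which clears LRP6 together with DKK proteins, was at 0.05 ± 0.09 TPM at Puberty against 1.72 ± 1.01 TPM at Day 3 (adjusted p = 0.00842) and at 0 counts in all Pregnancy libraries.

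ZNRF3 and RNF43 are the ligases on which R-spondins act. ZNRF3 was at 6.27 ± 0.96 TPM at Puberty against 19.2 ± 0.35 TPM at Day 3 (-1.29 ± 0.29, adjusted p = 0.00839), and it fell in Pregnancy (-0.93 ± 0.28, adjusted p = 0.0288) while at Year 1 it did not pass (-0.31 ± 0.28, adjusted p = 0.380). RNF43 fell at Puberty (-1.21 ± 0.31, adjusted p = 0.0163) and at Year 1 (-0.87 ± 0.31, adjusted p = 0.0403) and did not pass in Pregnancy (-0.80 ± 0.31, adjusted p = 0.0689). The Pregnancy call of ZNRF3 was lost without any 1 Day 3 library or Pregnancy replicate 2 or 3 (adjusted p between 0.0523 and 0.0889). The RNF43 calls held in 17 and 13 of 21 settings, lost among others without Day 3 replicate 1 or 3. CTNNB1, which encodes beta-catenin itself, rose slightly at Puberty (0.54 ± 0.15, adjusted p = 0.0228) and at Year 1 (0.43 ± 0.15, adjusted p = 0.0372). Its mean TPM was 310.1 ± 20.9 at Day 3, 364.5 ± 28.4 at Puberty and 248.7 ± 17.5 at Year 1, so that at Year 1 the TPM and the TMM-scaled change had opposite signs. The Year 1 call held in 9 of 21 settings (lost with RLE scaling, adjusted p = 0.0611, and without any 1 Day 3 library) and the Puberty call in 14 of 21. APC2, of the beta-catenin destruction complex, fell in all 3 comparisons (-3.00 ± 0.52 at Puberty, adjusted p = 0.00260), and GSK3A, a kinase of the same complex, rose on the TMM scale at Year 1 (0.56 ± 0.12, adjusted p = 0.00371; 0.0522 with upper-quartile scaling), while its mean TPM was 54.1 ± 10.6 at Year 1 against 62.2 ± 1.73 at Day 3.

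Of 14 feedback and target genes, which canonical WNT signals switch on in many tissues, 7 fell and 1 rose at Puberty, 5 fell and 1 rose at Year 1, and 5 fell and 1 rose in Pregnancy. The gene that rose was the proliferation factor MYC at Puberty and in Pregnancy and the adhesion receptor CD44 at Year 1. MYC was at 57.8 ± 9.33 TPM at Puberty against 29.0 ± 4.27 TPM at Day 3 (1.32 ± 0.34, adjusted p = 0.0157; lost without Day 3 replicate 1 or 3), and its Pregnancy call held in 14 of 21 settings. CD44 was at 5.33 TPM in the lowest and 93.77 TPM in the highest Year 1 library, against 4.18 to 5.28 TPM at Day 3 (4.54 ± 1.18, adjusted p = 0.00999). AXIN2, a widely used reporter of the pathway, was at 32.01, 40.69 and 34.53 TPM at Day 3, at 8.40, 10.89 and 16.57 TPM at Puberty, at 6.70, 2.89 and 4.60 TPM at Year 1 and at 13.03, 11.26 and 3.04 TPM in Pregnancy. It fell by 1.26 ± 0.43 at Puberty (adjusted p = 0.0483), by 2.18 ± 0.44 at Year 1 (adjusted p = 0.00286) and by 1.36 ± 0.43 in Pregnancy (adjusted p = 0.0332), all against Day 3. Its Puberty call held in 10 of 21 settings and was lost without any 1 Day 3 or Puberty library (adjusted p between 0.0505 and 0.143); its Pregnancy call held in 16 and was lost without any 1 Day 3 library. NKD1, a feedback inhibitor, was at 1.97 ± 1.09 TPM at Puberty against 32.8 ± 3.93 TPM at Day 3 (-3.76 ± 0.71, adjusted p = 0.00390). SP5, a target transcription factor, fell by 2.94 ± 0.64 at Puberty (adjusted p = 0.00781), and the receptor TNFRSF19 fell by 2.27 ± 0.44 (adjusted p = 0.00468; log2 value -2.88 without Puberty replicate 3). Among 12 nuclear effectors at Puberty, 2 fell and 4 rose. LEF1, a DNA-binding partner of beta-catenin, fell in all 3 comparisons and had the lowest any-stage adjusted p of its group: it was at 36.7 ± 4.34 TPM at Day 3, 7.36 ± 0.64 TPM at Puberty, 6.87 ± 1.48 TPM at Year 1 and 4.27 ± 0.48 TPM in Pregnancy (-2.19 ± 0.24 at Puberty, adjusted p = 0.000342). PYGO2, a co-activator, fell by 0.71 ± 0.19 at Puberty (adjusted p = 0.0172; lost without Day 3 replicate 3, Puberty replicate 2 or Puberty replicate 3), while TLE3, a co-repressor, rose by 1.42 ± 0.23 (adjusted p = 0.00195).

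In the branch that does not use beta-catenin, 4 of 14 genes fell and 2 rose at Puberty. ROR1, a receptor that binds WNT5A, was at 5.50 ± 1.17 TPM at Puberty against 15.4 ± 1.86 TPM at Day 3 (-1.17 ± 0.26, adjusted p = 0.00809). PRICKLE2, of the planar polarity machinery, fell by 1.04 ± 0.35 at Puberty (adjusted p = 0.0477), a call that held in 9 of 21 settings and was lost without any 1 Day 3 or Puberty library. DAAM1, which links Dishevelled to the actin cytoskeleton, was at 31.4 ± 4.49 TPM at Puberty against 9.44 ± 0.80 TPM at Day 3 (2.07 ± 0.32, adjusted p = 0.00164), and it also rose at Year 1 and in Pregnancy.

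In bulk ovary tissue, fewer cells of a type and less RNA per cell cannot be told apart. Markers of several cell types fell after Day 3, as most of the 10 genes did, while LGR4 rose at Puberty and in Pregnancy and WNT5A did not pass. The 12 surface epithelium and mesothelium markers found of 15 summed to 637.26 to 912.84 TPM at Day 3, 150.44 to 220.68 TPM at Puberty, 139.74 to 191.42 TPM at Year 1 and 130.94 to 185.43 TPM in Pregnancy; 7 of the 11 tested fell and 0 rose at Puberty. LRRN4 was at 0 in 7 of the 9 later libraries, KRT18 in 2, UPK3B in 3 and BNC1 in 1. At Year 1, 7 of the 11 fell and 1, ALDH1A2, rose (0.79 ± 0.25, adjusted p = 0.0233), at 92.3 ± 23.1 TPM against 90.7 ± 19.9 TPM at Day 3. EPCAM was at 1.87, 73.15 and 46.92 TPM at Year 1 against 62.83, 43.84 and 32.65 TPM at Day 3 and did not pass there (adjusted p = 0.546). In Pregnancy, 7 of the 11 fell and 0 rose. The 13 oocyte markers summed to 1716.87 to 2858.49 TPM at Day 3, 186.1 to 261.2 TPM at Puberty, 69.27 to 101.37 TPM at Year 1 and 43.94 to 207.23 TPM in Pregnancy. Of these 13, 8 fell and 0 rose at Puberty. At Year 1, 10 fell and 1, KIT, rose, so the Year 1 sums include a marker that went the other way. In Pregnancy, 8 of the 13 fell and 0 rose. Year 1 replicate 2, where all 3 R-spondins were at 0 counts, also had 9 of the 13 oocyte markers at 0, among them ZP3 and BMP15. The 9 oviduct and rete markers found of 10 summed to 26.98 to 73.51 TPM at Day 3, 9.17 to 11.93 TPM at Puberty, 0.99 to 4.12 TPM at Year 1 and 5.83 to 11.97 TPM in Pregnancy; 5 of 8 tested fell at Puberty, and PAX2 was at 0 in 7 later libraries. Markers of granulosa (6 of 12), theca (5 of 7), luteal (3 of 8) and smooth muscle cells (5 of 8) rose at Puberty, and 0 fell. The part of these cell types in the changes of the WNT, R-spondin and LGR genes was not tested.

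**Figure D5:**
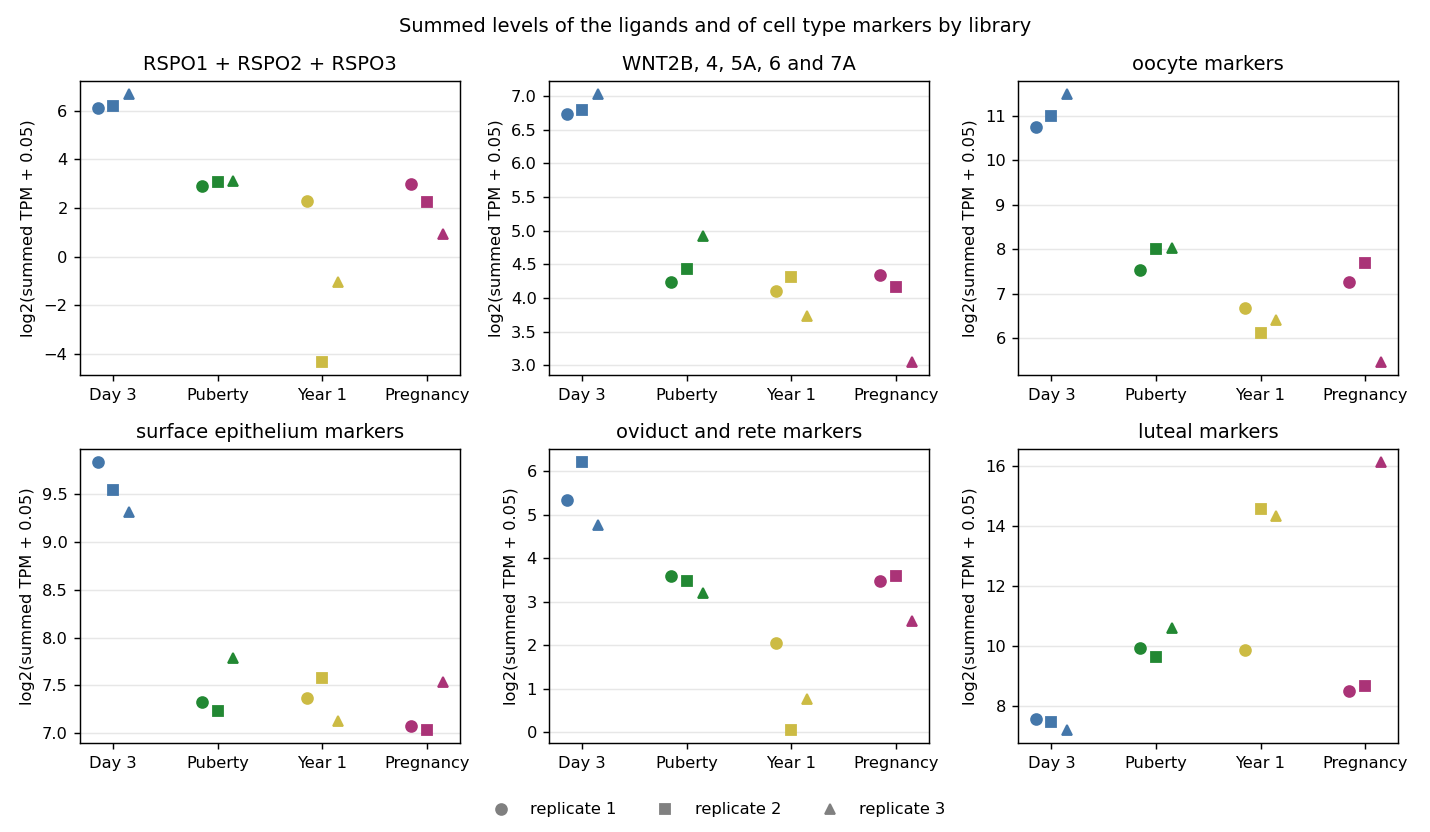
Summed TPM, on a log2 axis with 0.05 added, of the 3 R-spondins, the 5 WNT ligands and 4 marker lists in each of the 12 libraries, with replicates 1 to 3 as circle, square and triangle. The oocyte, surface epithelium and oviduct markers are highest in the 3 Day 3 libraries, as the ligands are, and the luteal panel separates Year 1 replicate 1 and Pregnancy replicate 3 from the other libraries of their stages.

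For the 8 genes that differed among the stages, the genes with the most similar pattern were sought among 10579 genes (mean log2 CPM of 3 or more), by Pearson's r of log2 CPM over the 12 libraries, as a description. The points share the contrast between Day 3 and later stages, which alone gives high values. RSPO2 was most like BAIAP2L1 (r = 0.991), at 8.65 TPM at Puberty against 211.7 TPM at Day 3, followed by ANGPTL6 and APBA1. RSPO1 was most like PLCE1 (r = 0.977), the epithelial keratin KRT19 (r = 0.975) and the germ-cell gene DND1 (r = 0.972). WNT4 was most like ZBED6CL (r = 0.963), GAS7 (r = 0.961) and DND1 (r = 0.959). LGR5 was most like CRNKL1, HUWE1 and GPBP1L1 (r = 0.9755 to 0.9804). The 3 most like WNT7A were DDX11, NANOS1, a germ-cell RNA regulator, and EDC3 (r = 0.970 to 0.972). Those most like WNT2B were FAN1, TOP1MT and IFT172 (r = 0.982 to 0.988), and those most like WNT6 were TCTN1, KANSL3 and BEX4 (r = 0.969 to 0.974). LGR4 was most like IGFBP2 (r = 0.975), an insulin-like growth factor binding protein that averaged 279.4 TPM at Day 3, 1152 TPM at Puberty, 230.6 TPM at Year 1 and 1032 TPM in Pregnancy. Next were DCP2 (r = 0.9595) and AGGF1 (r = 0.9558), whose mean TPM was nearly the same at Day 3 and Puberty. DCP2 averaged 5.94 and 5.95 TPM at these stages, and AGGF1 12.04 and 11.68 TPM.

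No pair of the 10 genes lay next to each other in the annotation. WNT6 had a WNT gene as a neighbour, WNT10A, 7845 bases away, which was at 0.39 TPM or less in each later library, against 0.77 to 1.00 TPM at Day 3. All 10 genes carry the deposited table's KEGG annotation for Wnt signaling, as 164 genes of the file do.

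The authors' deposited table gives DESeq2 results for each pair of stages. Its q-values for Puberty vs Day 3 were under 0.05 for 9 of the 10 genes, WNT5A being the exception at 0.0530. Of the 18753 genes in the file, 8532 were under 0.05 for that pair. The direction of all 10 changes was the same there as in the edgeR fit. That table also gave WNT7A a q-value of 0.0260 for Year 1 vs Puberty and of 0.0410 for Pregnancy vs Puberty, where the edgeR fit gave adjusted p of 0.0768 and 0.383. For Pregnancy vs Day 3 its q-values were 0.0476 for WNT5A, 0.0206 for RSPO3 and 1.1e-17 for WNT6. The edgeR fit gave these genes adjusted p of 0.172, 0.209 and 0.0998 in that order.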

How the data were processed

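Ovary mRNA was measured in 12 libraries, 3 per stage; 12 small RNA libraries named in the labels are not analysed here. Per the submitters' processing notes, the tools were Bowtie2 2.3.4.3, RSEM 1.3.1 and DESeq2 1.4.5 with build Sscrofa11.1. The authors deposited RSEM expected counts and TPM per gene and library, and, for each pair of stages, their log2 fold changes and q-values. Expected counts were rounded to whole numbers (92.956% to 94.678% of a library's values already were). Positions of the 10 genes in the file equal those of RefSeq for Sscrofa11.1, and all 18753 gene identifiers matched that table.

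Genes were filtered with filterByExpr (minimum count 10), scaled by TMM (factors 0.75 to 1.25, lowest at Year 1 and highest at Day 3) and tested with edgeR 4.0.16 in R 4.3.3 by the quasi-likelihood test, with all 12 libraries and 1 term per stage in 1 fit. Benjamini-Hochberg adjustment ran over the 15699 genes tested (threshold 0.05). The SE is the size of the log2 fold change divided by the square root of F. TPM gave levels and was not tested. Within each stage, replicate libraries differed by more than sampling noise (chi-square per degree of freedom of at least 18.0). The script was tested on simulated data.

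The members and lists were chosen with earlier results of these data known. Named pathway genes were, per group, up to 3 with the lowest any-stage adjusted p, plus AXIN2, LEF1, NKD1, RNF43, ZNRF3, RSPO4, LGR6, CTNNB1, FZD1, LRP6 and WLS; WNT11, WNT10A, DKK4, MYC, CD44, TSPAN8 and ST7L were named outside this rule, as were single marker genes. Similar genes were the 3 with the highest r to a member among those with an informative symbol and a mean log2 CPM of 3 or more (prior count 2). Alternatives were RLE and upper-quartile scaling, no count filter, DESeq2 1.42.0, limma 3.58.1 voom with quality weights, a model of just the pair of stages in question, a replicate block, dropping each library in turn, and dropping both Year 1 replicate 1 and Pregnancy replicate 3. Of 111 listed pathway genes, 3 are not analysed here and 6 had too few counts to test. Intervals on counts are exact at 95% and cover counting error only.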

Additional observations from a re-analysis of the deposited data

How the results depend on the processing

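No called difference of the 10 genes changed sign under any alternative. Of the 10 genes, DESeq2 gave 3 of 10 for Year 1 vs Puberty, 1 for Pregnancy vs Year 1 and 1 for Pregnancy vs Puberty. limma voom gave 7 for Year 1 vs Puberty and 6 for Pregnancy vs Year 1, where the edgeR fit gave 0 in each. With Year 1 replicate 1 and Pregnancy replicate 3 both dropped, the counts were 8 for Year 1 vs Puberty and 6 for Pregnancy vs Year 1 (51.6% of all genes, and 8005 of 16014). Leaving out 1 library at a time gave 3 to 9 of 10 for Puberty vs Day 3, 6 to 9 for Year 1 vs Day 3, 5 to 9 for Pregnancy vs Day 3, 0 to 6 for Year 1 vs Puberty and for Pregnancy vs Year 1, 0 for Pregnancy vs Puberty and 6 to 9 for any stage. In the same fits 16.7% to 38.1%, 35.2% to 58.9%, 20.8% to 44.0%, 0.00% to 38.3%, 0.00% to 30.6%, 0.00% and 28.7% to 65.9% of all genes were called, in the order of these comparisons; the cause was not tested.

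Of the 102 other pathway genes, limma voom called 70 for Puberty vs Day 3 (edgeR 38), 74 for Year 1 vs Day 3 (edgeR 49), 59 for Pregnancy vs Day 3 (edgeR 33), 58 for Year 1 vs Puberty, 54 for Pregnancy vs Year 1 and 92 for any stage (edgeR 50). It called 58.7%, 72.8%, 55.4%, 59.6%, 56.2% and 86.9% of all genes in these comparisons. DESeq2 called 17 for Year 1 vs Puberty and 14 for Pregnancy vs Year 1, where edgeR called 0 and DESeq2 21.0% and 18.4% of all genes. The fit of only the 2 stages called 65 for Puberty vs Day 3 (51.2% of all genes). With both of those libraries dropped the counts were 66 for Puberty vs Day 3, 51 for Pregnancy vs Day 3, 57 for Year 1 vs Puberty, 56 for Pregnancy vs Year 1 and 84 for any stage. Of all 16014 genes these fits called 8378, 7498, 8262, 8005 and 12250. Leaving out 1 library gave 23 to 48 for Puberty vs Day 3, 0 to 36 for Year 1 vs Puberty, 0 to 30 for Pregnancy vs Year 1, 38 to 59 for Year 1 vs Day 3, 23 to 46 for Pregnancy vs Day 3 and 29 to 72 for any stage.

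Upper-quartile scaling moved the median log2 fold change of all genes to -0.20 for Year 1 vs Day 3, -0.17 for Year 1 vs Puberty and 0.14 for Pregnancy vs Year 1. It changed the split of called genes for Year 1 vs Day 3 to 2785 higher and 4424 lower, against 3767 and 3765 with TMM. Replicate numbers were not taken to pair the sows. Correlations of deviations from the stage mean ran from -0.393 to 0.402 over 18 pairs of same-numbered libraries. For differently numbered libraries they ran from -0.509 to 0.475 over 36 pairs. These ranges alone cannot exclude a pairing. With the replicate block the 10 genes gave counts of 7, 8 and 7 at Puberty, Year 1 and Pregnancy against Day 3, as without it, and the pathway genes 37, 47 and 31. Of all genes, 25.6%, 45.3% and 29.9% were called with the block in these comparisons. Of the named pathway genes' calls, the block ended those of AXIN2 and PRICKLE2 at Puberty, AXIN2 in Pregnancy, and CTNNB1 and FZD1 at Year 1. LGR5 had 0 to 2 counts in each later library, so differences between the later stages were not detectable at this depth.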
